A study of Mus musculus with 8 samples.

Results

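Claudins are the membrane proteins that form the strands of tight junctions, the seals that join neighbouring epithelial cells and decide which ions and how much water pass between them. Each segment of a kidney tubule carries its own set: some claudins tighten the junction, some form pores for cations, anions or water, and others belong to epithelia that are still forming. The mesonephros is the transient embryonic kidney, whose tubules regress before birth. Expression of 10 claudin genes (Cldn1, Cldn2, Cldn3, Cldn4, Cldn6, Cldn7, Cldn8, Cldn10, Cldn12 and Cldn19) was described here across 8 arrays. They were chosen as a named list, and their probes were found by matching the accession of each probe to its gene. The 10 genes had 12 probes, Cldn2 and Cldn4 having 2 each, out of 29 numbered claudin genes on the array and 33619 genes and unnamed features that entered the test. All 12 probes were well above background, by the scanner software's own call, on all 8 arrays, so none was lost to the filter on dim probes.

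Tubules of the mesonephros came from mouse embryos given in the labels as strain C57/BL6, and were cut from frozen sections stained with toluidine blue. Total RNA of each was hybridised in 1 colour to 1 Agilent array. There were 3 arrays labelled p21KO -/-, a knockout of p21, the cyclin-dependent kinase inhibitor encoded by Cdkn1a, and they were set against 5 wild-type arrays. The design text calls the p21-null tubules non-senescent and the wild-type tubules senescent. The sources used here do not give the embryonic stage or the embryos behind each sample. The p-values therefore reflect only how these samples vary, which may be technical variation.

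Values are log2 signals minus the 75th percentile of the same array, so a value of 0 equals that percentile. Probes bind with different strength, so levels are compared between arrays for 1 gene and never between genes. Differences are means of arrays labelled p21-null minus means of wild-type arrays, with standard errors (SE) from limma. Each array had 82.3% to 89.3% of its 55681 probes well above background and no saturated claudin spot. Pairs of arrays correlated between 0.865 and 0.952 over all features, and precision is limited by how few arrays there are. The targeted gene did not separate the groups. On its first probe Cdkn1a stood at 2.11, 0.96 and 1.40 in labelled p21-null replicates 1 to 3, against 2.49, 2.52, 0.44, 1.85 and 1.11 in wild-type replicates 1 to 5. The group difference was −0.19 (SE 0.54, limma adjusted p = 0.950), and that of the second probe was −0.24. The sources used here do not say where these probes lie relative to the deleted part, and the group is called labelled p21-null throughout. Markers of some other cells differed between the groups, and those of others did not separate them. The mean of 14 liver markers was 3.0 to 4.31 in labelled p21-null arrays and −0.65 to 3.27 in wild-type arrays, and that of 9 macrophage markers was 0.62 to 1.39 in labelled p21-null arrays and −0.61 to 0.70 in wild-type arrays, so both overlapped. The mean of the 10 measured erythroid markers was 3.71 to 4.60 in labelled p21-null arrays and 1.42 to 3.61 in wild-type arrays. That of 8 neural markers was −2.78 to −1.60 in labelled p21-null arrays and −1.42 to 0.81 in wild-type arrays. The erythroid and neural means did not overlap between the groups. Means of stroma, endothelium, gut epithelium, mesothelium and gonad markers differed by −0.35, 0.26, −0.03, −0.86 and −0.39, and all of these overlapped.

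The tissue label was read against marker lists. Of 10 general epithelial markers, such as the adhesion genes Cdh1 and Epcam, 9 were well above background on all 8 arrays, and their mean did not separate the groups, at −0.13 ± 0.94 (SD, n = 3) in labelled p21-null arrays and −0.17 ± 1.29 (SD, n = 5) in wild-type arrays. Of 9 measured genes of the nephric tubule and duct 6 were well above background on all 8 arrays, among them Pax2 and Lhx1, the transcription factor genes that define this lineage. The mean of those 6 genes was −0.55, −1.13 and −1.37 in labelled p21-null replicates 1 to 3, against 0.87, −0.76, 0.31, −0.30 and −1.59 in wild-type replicates 1 to 5. The groups overlapped, with wild-type replicate 5 the lowest array. Emx2, Sim1 and Ret were above background on 7, 3 and 4 arrays. With them the mean of all 9 was −3.19 to −2.46 in labelled p21-null arrays and −2.40 to −0.75 in wild-type arrays, without overlap. Sim1 read −8.40, −7.63 and −7.97 in labelled p21-null arrays. Its highest values were −5.05, −4.38 and −5.08, in wild-type replicates 2, 4 and 5. A gene that passes the filter through wild-type arrays builds a gap into this mean, so no conclusion is drawn from that gap. Markers of proximal-type tubule overlapped, with means of −1.99 to −1.02 in labelled p21-null arrays and −2.01 to −0.67 in wild-type arrays, and those of loop, distal and collecting-type tubule differed by −0.02. The mean of 8 podocyte and glomerulus markers was −1.05 to −0.80 in labelled p21-null arrays and −0.78 to −0.02 in wild-type arrays. Those ranges did not overlap, though the gap was narrow, and 6 of the 8 genes were lower in labelled p21-null arrays. In bulk samples like these, fewer cells of a type and less RNA per cell cannot be told apart.

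The sequences upstream of 4 of these genes are shown because their signals had the 4 widest ranges over the arrays among the members. They are the 250 bases before the RefSeq start on GRCm38.p6, 5′ to 3′ on the strand of the gene. Capitals mark 3 motifs searched on both strands: GGGCGG, the GC box bound by Sp factors, TATAAA, the TATA box of core promoters, and CACCTG, the E-box type bound by the Snail and ZEB repressors of epithelial genes. None of the marked motifs overlaps another.
Cldn1, chr16:26371840-26372089, minus strand: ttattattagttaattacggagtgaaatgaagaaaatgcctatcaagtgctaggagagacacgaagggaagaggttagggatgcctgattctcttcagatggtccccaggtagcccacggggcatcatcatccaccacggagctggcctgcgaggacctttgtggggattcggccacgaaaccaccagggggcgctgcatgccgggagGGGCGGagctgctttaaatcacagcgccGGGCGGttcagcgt
Cldn2, chrX:139800558-139800807, plus strand: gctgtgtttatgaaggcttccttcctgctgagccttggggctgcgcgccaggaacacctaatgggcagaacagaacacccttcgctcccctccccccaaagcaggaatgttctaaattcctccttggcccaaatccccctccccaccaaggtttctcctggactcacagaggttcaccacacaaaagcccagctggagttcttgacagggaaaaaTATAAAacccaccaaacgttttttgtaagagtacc
Cldn4, chr5:134946935-134947184, minus strand: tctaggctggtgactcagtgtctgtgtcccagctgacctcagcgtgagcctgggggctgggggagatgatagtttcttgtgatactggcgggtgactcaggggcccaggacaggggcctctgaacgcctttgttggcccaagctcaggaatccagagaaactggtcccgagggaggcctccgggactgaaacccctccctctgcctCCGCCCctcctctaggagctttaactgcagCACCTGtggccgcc
Cldn6, chr17:23679115-23679364, plus strand: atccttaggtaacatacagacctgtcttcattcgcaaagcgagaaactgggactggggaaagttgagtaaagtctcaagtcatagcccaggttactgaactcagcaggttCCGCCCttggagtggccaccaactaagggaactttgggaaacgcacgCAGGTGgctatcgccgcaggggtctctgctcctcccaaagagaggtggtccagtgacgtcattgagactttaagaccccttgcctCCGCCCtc

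Cldn2 alone among the members with a window carried the TATA motif, 35 bases before its start, and it held 4 CpG pairs, where Cldn1 held 14, Cldn6 9 and Cldn4 7, beside a median of 6 over all windows. The TATA motif occurred in 12.4% of the 32851 windows of this length over all genes. The E-box type was found in 3 of the 14 windows of the members, those of Cldn4, Cldn6 and Cldn7, and in 17.2% of all windows. The GC box was found in 10 of the 14 windows of the members, which belong to 8 of the 9 genes with a window, and in 32.7% of all windows. A match is a run of letters and not a measured binding site. Cldn8 had no entry.

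Against wild type, 9 of the 10 claudins had a lower mean and 1, Cldn1, a higher mean in labelled p21-null arrays, where 52.4% of all features tested were lower. No member passed the test: limma called 0 members at an adjusted p under 0.05, as it called 0 of all 33619 features (0%). At an unadjusted p under 0.05 there were 3 members, Cldn1 on the higher side (6.2% of all features) and Cldn2 and Cldn10 on the lower side (3.91%), against 10.1% of all features in either direction. That count was 0 to 2 whichever single array was left out. The median difference of the 10 genes was −0.43, beside −0.03 over all features. Without labelled p21-null replicate 3 the number of lower members was 5 of 10 and the median was 0.05. The range among the wild-type arrays alone was larger than the difference between groups for all 10 genes. A range of 5 values and a difference of means are unlike measures, and no share over all features stands beside this count.

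**Figure D1:**
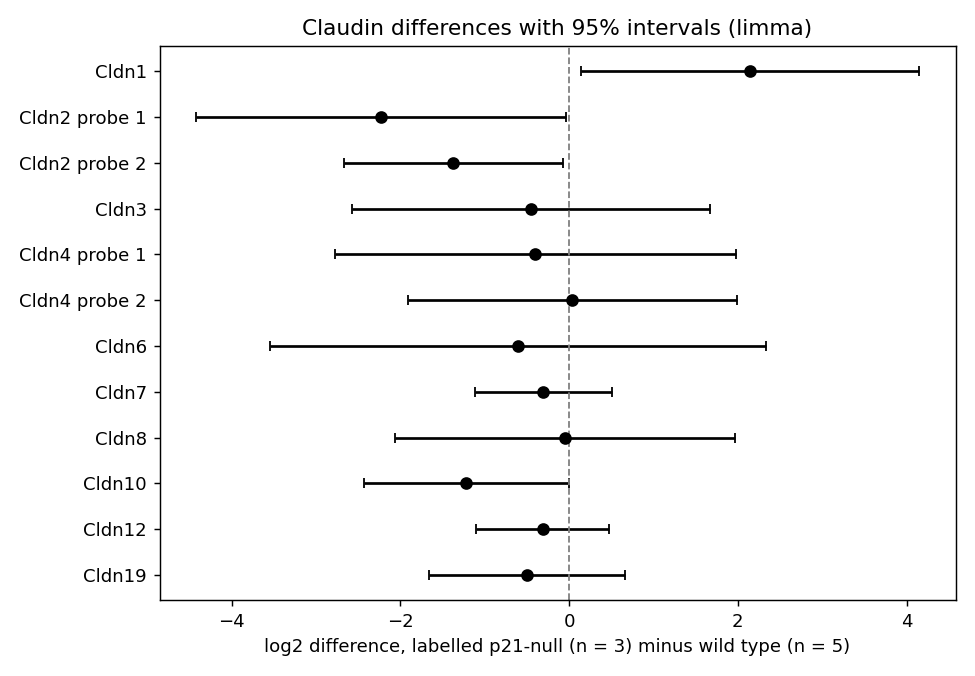
Difference in log2 signal, labelled p21-null minus wild type, for each claudin probe (points) with its 95% interval from limma (bars). Second probes come from the fit on all probes. Cldn1 stands at 2.15 and Cldn2 probe 1 at −2.23, and the intervals of 8 of the 12 probes include 0.

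The pore-forming claudins Cldn2 and Cldn10 stood on the lower side. Cldn2 forms a pore for cations and water and is known from the leaky proximal tubule. On its first probe the labelled p21-null replicates 1 to 3 read −3.76, −3.54 and −4.01, against 0.26, −2.32, −1.87, 0.43 and −4.19 in wild-type replicates 1 to 5. The 3 arrays labelled p21-null lay close together at the low end, wild-type replicates 1 and 4 were high, and wild-type replicate 5 was lower than all the others, so the groups overlapped. Labelled p21-null arrays averaged −3.77 ± 0.23 (SD, n = 3) and wild-type arrays −1.54 ± 1.93 (SD, n = 5), so the group difference was −2.23 (SE 0.97), or 4.69-fold lower (limma adjusted p = 0.485). The two-sided exact permutation test over the 56 splits of the arrays gave p = 0.125, and the smallest p it can give is 0.0179.

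The second Cldn2 probe ran the same way and its groups did not overlap. It read −4.23, −4.18 and −3.97 in labelled p21-null arrays, against −1.46, −3.45, −3.20, −1.80 and −3.85 in wild-type arrays. The group difference was −1.38 (SE 0.57, adjusted p = 0.487 in the limma fit on all probes, where 9.77% of probes and this one had an unadjusted p under 0.05). Of all features, 2.44% had every array labelled p21-null below every wild-type array. The gap was narrow, between −3.97 in labelled p21-null replicate 3 and −3.85 in wild-type replicate 5, and the exact permutation test gave p = 0.0714. The arrays lay on 3 slides, and each held both groups but only a single array labelled p21-null. Slide 1 held labelled p21-null replicate 1 and wild-type replicates 1 to 3. Slides 2 and 3 held labelled p21-null replicates 2 and 3 with wild-type replicates 4 and 5, respectively. Within slides 1, 2 and 3 the first probe differed by −2.45, −3.96 and 0.18 and the second by −1.52, −2.39 and −0.12, and with slide as a block the first differed by −2.13.

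Wild-type replicate 1 was among the highest arrays for Cldn2 and the highest for the nephric tubule and duct markers. Other arrays did not follow that order. Wild-type replicate 4, the highest for Cldn2 at 0.43, had a mean of −0.30 over the 6 brighter markers. Wild-type replicate 3, with a mean of 0.31, read −1.87 for Cldn2. With the mean of the 6 such markers above background on all arrays as a covariate, an alternative chosen after seeing the data, the Cldn2 difference was −1.18 (SE 0.79). With the mean of all 9 it was 0.49 (SE 0.84), opposite in sign. That mean includes dim probes, among them Sim1, whose highest values were all in wild-type arrays, so no conclusion is drawn from this turn. With the liver marker mean the Cldn2 difference was −1.30 (SE 1.45). The part of nephric tubule and duct cells in the Cldn2 signal was not tested.

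Cldn10 encodes isoforms that form anion or cation pores in different tubule segments; its 1 probe does not separate them here. It read −2.77, −3.60 and −4.02 in labelled p21-null replicates 1 to 3, against −2.03, −3.54, −1.84, −1.20 and −2.60 in wild-type replicates 1 to 5. All but replicate 2 of the wild-type arrays lay above all 3 arrays labelled p21-null. Labelled p21-null arrays averaged −3.46 ± 0.63 (SD, n = 3) and wild-type arrays −2.24 ± 0.88 (SD, n = 5), so the group difference was −1.22 (SE 0.54), or 2.33-fold lower (limma adjusted p = 0.489, exact permutation p = 0.0893). Within slides 1, 2 and 3 the difference was −0.30, −2.40 and −1.41, and it was −1.22 with slide as a block. With the nephric tubule and duct mean as a covariate the difference was −0.84 over the 6 brighter markers and −0.39 over all 9, and with the liver mean it was −1.85 (SE 0.78).

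Cldn1 was the only member on the higher side. It encodes a sealing claudin needed for the water barrier of skin, found in the adult kidney in the capsule cells around the glomerulus and also expressed in liver. It read 0.38, −0.09 and 0.27 in labelled p21-null replicates 1 to 3, against 0.27, −4.28, −2.52, −2.45 and −0.84 in wild-type replicates 1 to 5. The arrays labelled p21-null were alike, and wild-type replicate 1 was the one wild-type array at their level. Labelled p21-null arrays averaged 0.18 ± 0.25 (SD, n = 3) and wild-type arrays −1.96 ± 1.75 (SD, n = 5), so the group difference was 2.15 (SE 0.89), or 4.43-fold higher (limma adjusted p = 0.461, exact permutation p = 0.107).

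Cldn1 was higher within each slide, by 2.56, 2.35 and 1.10 in slides 1, 2 and 3, and by 2.08 with slide as a block. Labelled p21-null replicate 1 was the highest array for Cldn1 and for the liver mean, and wild-type replicate 2 the lowest for both. Wild-type replicate 1, at the level of the labelled p21-null arrays for Cldn1, had a liver mean of only 1.60, below the 3.27 of wild-type replicate 5. After adding the liver mean to the fit, the Cldn1 difference was 0.17 (SE 1.01). With the epithelial mean, which itself differed by only 0.03 between the groups, it was 2.11 (SE 0.66). With the nephric tubule and duct mean it was 2.51 (SE 1.01) over the 6 brighter markers and 3.45 (SE 1.26) over all 9. The liver mean itself was higher in labelled p21-null arrays, by 2.33, so the fit separates it from the group label only poorly. With it, the count of all features at an unadjusted limma p under 0.05 fell from 3400 to 808. The part of liver cells in the Cldn1 signal was not tested.

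**Figure D2:**
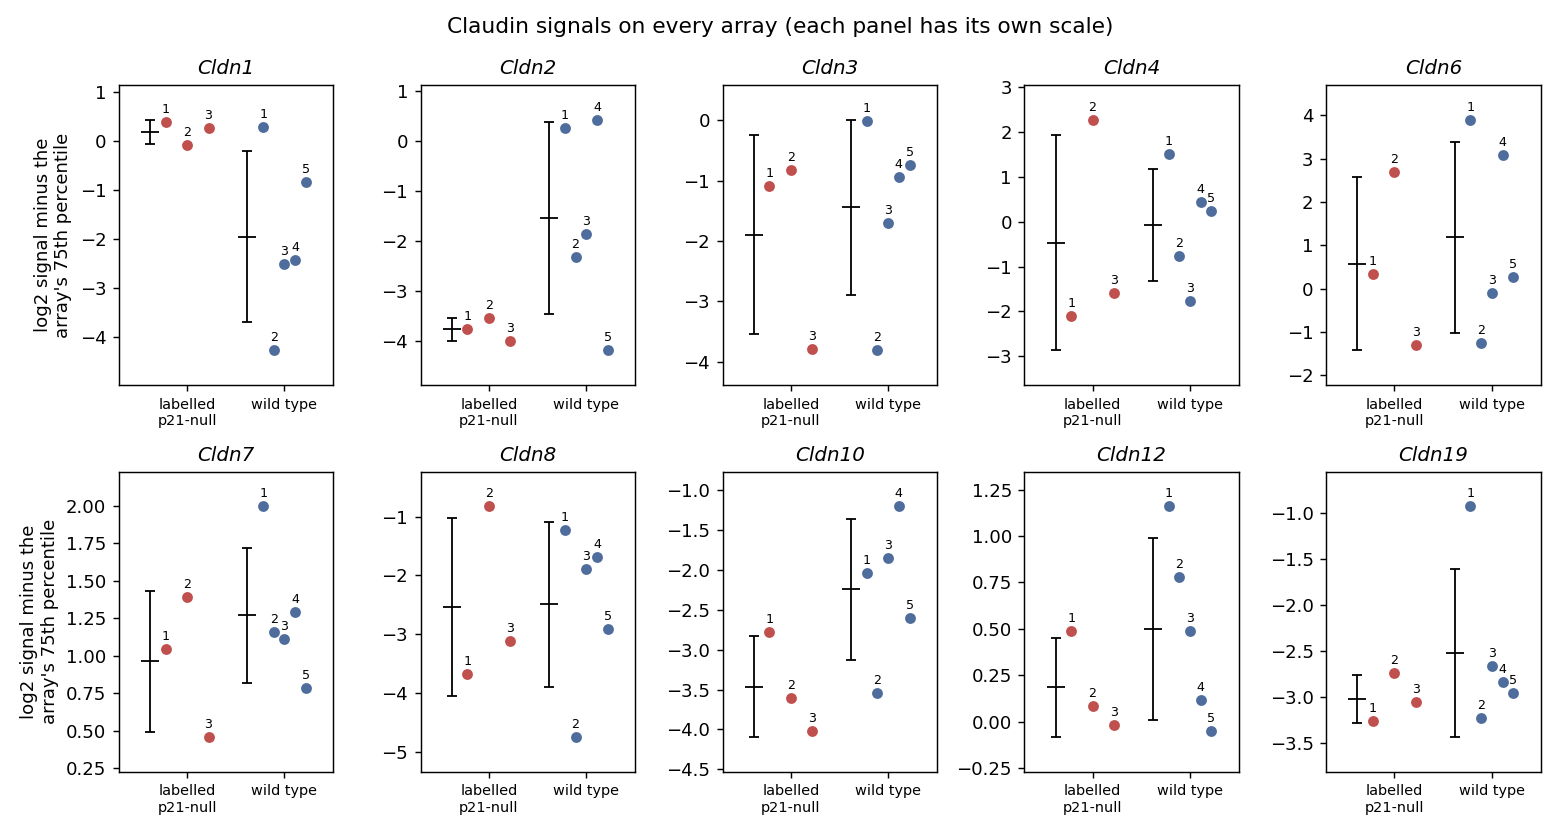
Log2 signal minus the 75th percentile of the array for each claudin, first probes, with labelled p21-null arrays (red, n = 3) left of wild-type arrays (blue, n = 5). Numbers are replicates, and the black bar left of the points is the mean with its SD. Each panel has its own scale. Wild-type replicate 1 is the highest of all arrays for Cldn3, Cldn6, Cldn7, Cldn12 and Cldn19.

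The claudins of tight distal and collecting epithelia, Cldn3, Cldn4, Cldn7 and Cldn8, had group differences between −0.46 and −0.05, and all but Cldn7 varied widely inside both groups. Cldn3 and Cldn4 encode the receptors of a clostridial enterotoxin and sit beside each other on chromosome 5, with 0 protein-coding genes between them. Cldn4 read −2.11, 2.28 and −1.59 in labelled p21-null replicates 1 to 3, against 1.51, −0.77, −1.77, 0.43 and 0.24 in wild-type replicates 1 to 5. Labelled p21-null replicate 1 was the lowest array and replicate 2 the highest, a 20.9-fold range within that group of 3. The difference was −0.40 (SE 1.05) with a 95% interval from −2.78 to 1.98, and the second probe gave 0.04 with an interval from −1.91 to 1.99. Both intervals allow a change of more than 2-fold either way.

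Cldn3 read −1.08, −0.82 and −3.80 in labelled p21-null arrays, against −0.01, −3.81, −1.70, −0.94 and −0.74 in wild-type arrays. Labelled p21-null replicate 3 and wild-type replicate 2 stood apart at the low end, and the other arrays of both groups overlapped. The difference was −0.46 (SE 0.94), and without labelled p21-null replicate 3 it was 0.49. Cldn3 and its neighbour Cldn4 shared labelled p21-null replicate 2 and wild-type replicate 1 among their 3 highest arrays. Their centred profiles were 1.34 apart as a root mean square over the 8 arrays, and 4815 named genes lay closer to Cldn3 than Cldn4 did.

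Cldn8, which pairs with Cldn4 in a chloride-conducting junction of the collecting duct, read −3.68, −0.82 and −3.12 in labelled p21-null arrays, against −1.23, −4.75, −1.88, −1.68 and −2.91 in wild-type arrays. As for Cldn4, labelled p21-null replicate 2 was the highest array, followed by wild-type replicates 1 and 4. The mean difference was −0.05 (SE 0.89), and its sign turned under other scalings (0.020 with median scaling). Its chromosomal neighbour Cldn17 differed by −0.49 (SE 0.40). Cldn7, which lies along the lateral membrane and binds Epcam, was far more even, at 1.05, 1.39 and 0.46 in labelled p21-null arrays and 2.0, 1.16, 1.11, 1.29 and 0.79 in wild-type arrays. Its difference was −0.30, with an interval from −1.12 to 0.51, and all 8 arrays fell within a 2.90-fold range. Leaving out labelled p21-null replicate 3 gave −0.052, and leaving out wild-type replicate 1 gave −0.12.

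Cldn6, a claudin of embryonic epithelia that is low in most adult tissues, had the widest range of the 10 genes. It read 0.34, 2.68 and −1.30 in labelled p21-null replicates 1 to 3, against 3.90, −1.27, −0.10, 3.09 and 0.27 in wild-type replicates 1 to 5. Labelled p21-null replicate 2 was high, as were wild-type replicates 1 and 4, and the remaining 5 arrays lay well below them, a 36.7-fold range in all. Labelled p21-null arrays averaged 0.57 ± 2.0 (SD, n = 3) and wild-type arrays 1.18 ± 2.21 (SD, n = 5), so the group difference was −0.60 (SE 1.30, limma adjusted p = 0.931). The sign turned when labelled p21-null replicate 3 was left out (0.33) and when wild-type replicate 1 was (0.075). The neighbouring gene Cldn9, read by a probe of its own, had the same 3 arrays at the top. It read 0.29 in labelled p21-null replicate 2 and 0.86 and 0.68 in wild-type replicates 4 and 1. Cldn9 spanned only 3.55-fold over all arrays. The 2 centred profiles were 1.48 apart as a root mean square, and 464 named genes lay closer to Cldn6 than Cldn9 did.

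Cldn12 and Cldn19 completed the list. Cldn12, an unusual claudin linked to calcium uptake in the gut, read 0.49, 0.08 and −0.02 in labelled p21-null arrays, against 1.16, 0.78, 0.49, 0.12 and −0.05 in wild-type arrays. It spanned only 2.32-fold over all arrays, the narrowest range of the members, and differed by −0.31 with an interval from −1.10 to 0.48. Cldn19, which works with Cldn16 in the reabsorption of magnesium and calcium and is also made by Schwann cells, read −3.27, −2.75 and −3.06 in labelled p21-null arrays, against −0.93, −3.23, −2.66, −2.84 and −2.95 in wild-type arrays. Wild-type replicate 1 alone stood high and the other 7 arrays lay between −3.27 and −2.66. The difference was −0.50 (SE 0.51), and −0.10 without wild-type replicate 1. For its partner Cldn16, 0 of the 8 arrays had a signal well above background.

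The spread inside the wild-type group was itself large for most members. The SD over the 5 wild-type arrays was 2.21 for Cldn6, 1.93 for Cldn2, 1.75 for Cldn1, 1.45 for Cldn3, 1.41 for Cldn8 and 1.25 for Cldn4. It was 0.49 for Cldn12 and 0.45 for Cldn7, and the median over all features was 0.61. Of the 10 genes 8 lay above that median. For Cldn6, 97.7% of all features had a smaller SD and for Cldn7 30.1%.

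The same arrays were high or low for several members. Wild-type replicate 1 was among the 3 highest arrays for all 10 genes and the highest for 5. Labelled p21-null replicate 2 and wild-type replicate 4 were among the 3 highest for 6 genes each. Labelled p21-null replicate 3 was among the 3 lowest for 9 genes, and wild-type replicate 2 for 6. General epithelial markers put the arrays in a like order: their mean was highest in wild-type replicate 1 (1.71), then in labelled p21-null replicate 2 (0.87) and wild-type replicate 4 (0.27), and lowest in wild-type replicate 2 (−1.77). Those 3 top arrays were also the top 3 for Cldn4, Cldn6, Cldn7 and Cldn8. The part of epithelial content in these claudin signals was not tested. With the epithelial mean as a covariate the group differences were −0.44 (SE 0.75) for Cldn4, −0.66 (SE 0.49) for Cldn6 and −2.26 (SE 0.86) for Cldn2. Without the covariate the SEs were 1.05, 1.30 and 0.97. The epithelial mean itself differed by only 0.03 between the groups, so this fit could move the group differences little.

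**Figure D3:**
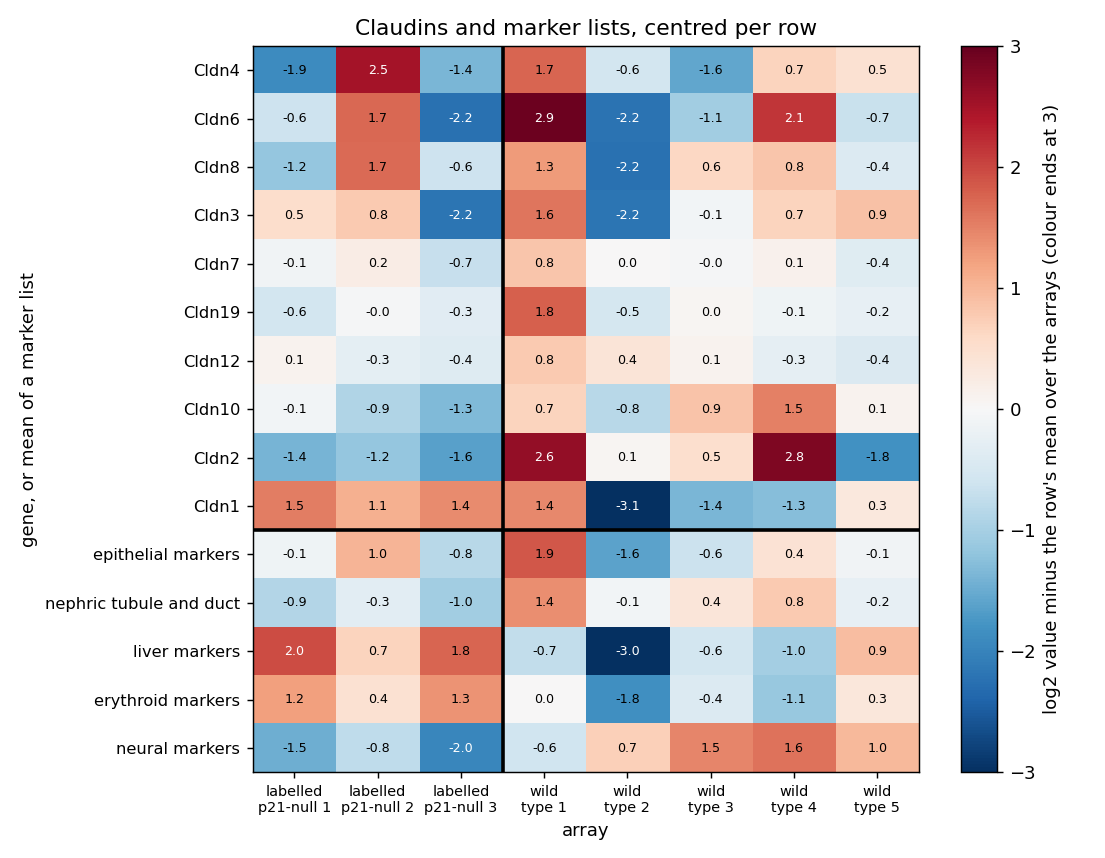
Each row is a claudin, or the mean of a marker list, as log2 value minus the row's own mean over the 8 arrays, with the 3 arrays labelled p21-null left of the 5 wild-type arrays. Cldn4, Cldn6 and Cldn8 share their high arrays with the epithelial markers, and Cldn1 is lowest where the liver markers are lowest, in wild-type replicate 2.

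Named genes with the most similar profiles were found by the root mean square distance between profiles centred on their own means over the 8 arrays, among 18039 named genes. For Cldn4 they were Sfn, a 14-3-3 protein of stratified epithelia (distance 0.32), Lad1, an epithelial anchoring filament protein (0.45), and Arhgef16 (0.49). For Cldn6 they included Fermt1, an integrin activator of epithelia (0.58), and Kdf1 (0.63). For Cldn2 they were Hoxb7, a homeobox gene used as a marker of the nephric duct (0.50), Vmn2r55 (0.56) and Adgrg2, a receptor of the efferent ducts (0.58). For Cldn1 they were Pirb, an inhibitory receptor of myeloid cells (0.42), Hbb-bh1, an embryonic globin (0.48), and Osgin1 (0.49). Cldn10 was nearest to Cdhr5, a cadherin of the brush border (0.26), Klc2 (0.27) and Nkain1 (0.29).

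The remaining members had other nearest genes. Cldn3 was nearest to Sorl1 (0.65), G630025P09Rik (0.65) and Wfdc2 (0.67), and Cldn8 to Insyn2b (0.39), Susd4 (0.49) and Nrarp (0.49). The nearest genes of Cldn7 (Erf at 0.13, Tmem141 and Vps36), Cldn12 (Large2 at 0.12, Gm4850 and Arap1) and Cldn19 (Arhgap22 at 0.18, Baiap2 and Defb29) were at short distances, and these 3 profiles had the lowest variation over the arrays of the members. Among the claudins themselves the closest pair was Cldn7 and Cldn12, at 0.31, and the farthest was Cldn1 and Cldn2, at 2.72.

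The other junction genes went in both directions, where 47.6% of all features were higher in labelled p21-null arrays. Of 16 measured claudin genes and claudin-domain genes outside the members, 8 were higher and 8 lower in labelled p21-null arrays, with a median difference of 0.03, and 0 passed limma's adjusted threshold. Of these 16, 1 had an unadjusted limma p under 0.05, beside 10.1% of all features. That gene was Cldn13, a rodent claudin known from red cell precursors. Cldn13 read 4.03, 3.22 and 4.09 in labelled p21-null arrays, against 1.33, −0.77, 1.42, −0.17 and 3.03 in wild-type arrays. Its groups did not overlap, as for 4.44% of all features on the higher side, and the difference was 2.81 (SE 0.78, limma adjusted p = 0.307). The erythroid mean was higher on the same arrays, by 1.61, with 8 of its 10 genes higher and 2 lower. Its globin genes Hba-a1, Hbb-bt and Hbb-y differed by only 0.17, −0.04 and −0.05. The part of erythroid cells in the Cldn13 signal was not tested. Cldn5, the claudin of endothelium, differed by −0.33 (SE 0.54), Cldn9 by −0.74, Cldn11, a claudin of myelin and Sertoli cells, by −1.11, Cldn20 by 0.94 and Cldn34c1 by −0.88.

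Among 12 other membrane proteins of the junction, 8 were higher and 4 lower. F11r, the junctional adhesion molecule JAM-A, was the 1 of these 12 with an unadjusted p under 0.05, a share near the 10.1% of all features. It stood at 1.37, 1.85 and 1.56 in labelled p21-null arrays, against 1.42, −0.28, 0.01, 0.46 and −0.16 in wild-type arrays. The group difference was 1.30 (SE 0.42, limma adjusted p = 0.357). All wild-type arrays but replicate 1 lay below the 3 arrays labelled p21-null. The liver, erythroid and macrophage means were also higher in labelled p21-null arrays, by 2.33, 1.61 and 1.17. In those lists 14 of 14, 8 of 10 and 7 of 9 genes were higher. The part of these cells in the F11r signal was not tested. Jam3, a related adhesion molecule, differed by −0.96, Marveld2, which encodes tricellulin, by 0.60, Ildr2 by −0.51, and Ocln, encoding occludin, by 0.19, all without passing.

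The scaffolds that hold claudins to the cytoskeleton and the polarity proteins were split, with 7 of 16 higher and 9 lower. At an unadjusted limma p under 0.05 there were 0, beside 10.1% of all features. Cgn, encoding cingulin, differed by 1.62 (SE 0.75, limma adjusted p = 0.523), Pard3 by −0.57 and Mpdz by −0.55. Tjp1, which encodes the scaffold ZO-1, differed by −0.15 (SE 0.32). Across these scaffolds, the membrane proteins and 15 genes of claudin turnover and control, 21 of 43 were higher and 22 lower, with a median of −0.02.

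**Figure D4:**
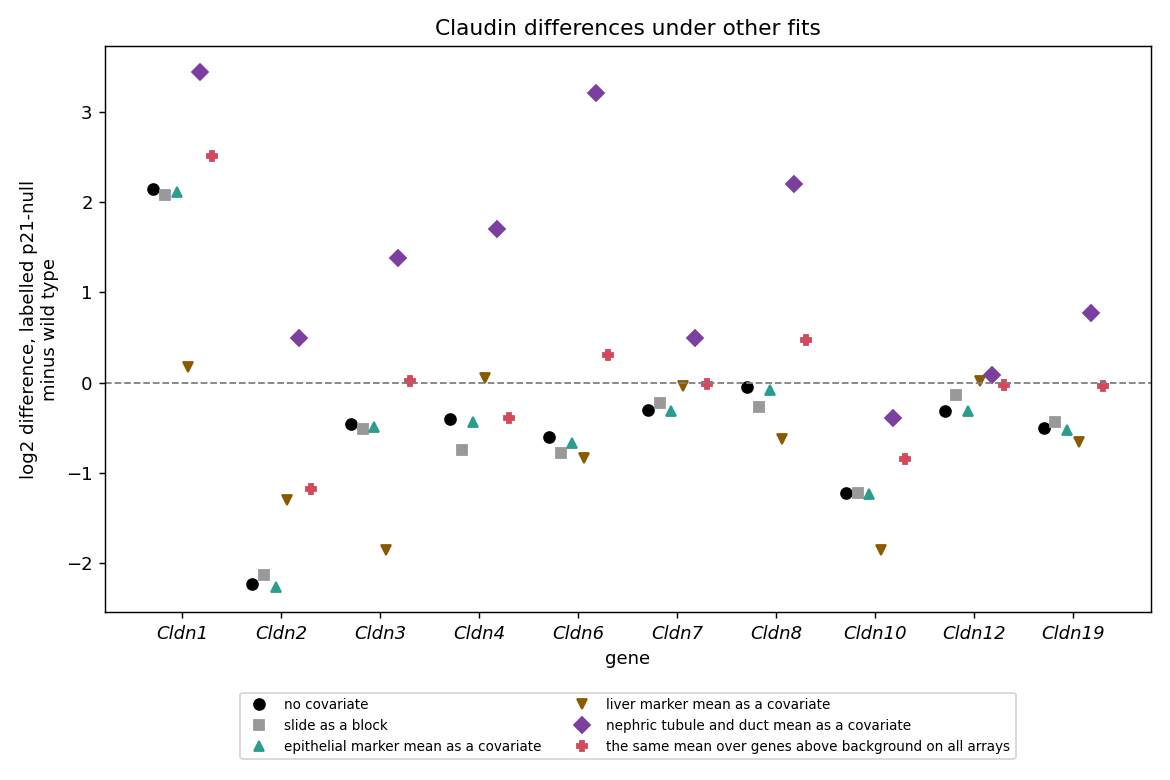
Log2 difference, labelled p21-null minus wild type, for each claudin (horizontal axis) without a covariate, with slide as a block, and with the mean of a marker list as a covariate. Points with the epithelial mean, which differed by only 0.03 between the groups, lie close to those without a covariate. Cldn1 stands at 0.17 with the liver mean. With the nephric tubule and duct mean over 9 markers, which includes the dim Sim1, highest in wild-type arrays, 9 of the 10 genes are above 0. With that mean over the 6 markers above background on all arrays, 6 genes are below 0, among them Cldn2 at −1.18.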

How the data were processed

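RNA of 8 samples was read in 1 colour. Scanner output was made with Feature Extraction 10.7.3.1 by Agilent, per the file headers, and gives each spot's intensity on a linear scale, with background and slide trends removed in the processed intensity and the median spot and background intensities as scanned. The authors' deposited table holds log2 values, for which the submitters' processing notes name limma; every column had a median near 9.26 and correlated at 0.999 or higher with normexp-corrected values of its array, which settles its scale and direction. The sources used here do not describe how its background was corrected.

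Processed signals of spots that were not controls were taken as log2 minus the 75th percentile of the array, after leaving out spots with outlier marks; no claudin spot was left out, and each claudin probe has 1 spot. Probes well above background on at least 3 of 8 arrays were kept (50046 of 55681). Accessions gave symbols through RefSeq, GRCm38.p6 (26056 probes named, 29625 not), and the probe with the highest mean stood for a gene. The fit was limma 3.58.1 in R 4.3.3, without covariates, over 33619 features with Benjamini-Hochberg adjustment at 0.05; it was tested on simulated data. Single genes were also tested by exact permutation. A marker list's mean used the genes with a value on every array. Alternatives were other scalings, normexp with an offset of 50, other filters, slide or replicate number as a block, other probe rules, the deposited table, marker means as covariates and leaving out each array. Named genes are all members, Cdkn1a, the smallest p-values of each list, Cldn5, neighbouring claudins and the 3 nearest profiles. Outside this rule, Ocln, Tjp1, Grhl2, Ovol2 and Prss8 were chosen after their values were seen. A few genes that this rule names are not reported here. The members, lists and tests were chosen with earlier results of these data known.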

Additional observations from a re-analysis of the deposited data

Results flagged for a closer look

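Cldn19 in wild-type replicate 1 stood at −0.93, while the nearest of the other 4 wild-type arrays was at −2.66, a gap large for the range of that group. Such a gap arises by chance in about 5% of groups of this kind, and 14 probes (12 claudin and 2 Cdkn1a) were looked at, of which this 1 stood out. Groups of 3 arrays were not looked at. The same array was the highest for 5 claudins and for the mean of the epithelial markers.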

How the results depend on the processing

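No claudin passed an adjusted p under 0.05 in limma under any of the 23 alternatives, and no call could be lost. The labels' replicate numbers did not pair the arrays (same-numbered arrays correlated at 0.06, −0.08 and −0.07 after removing group means); with the replicate block the differences were 2.36 for Cldn1, −2.46 for Cldn2, −0.99 for Cldn10 and 0.081 for Cldn8, whose sign turned. Cldn8 also turned with median scaling (0.020), quantile normalization (0.077) and the deposited table (0.028). With the liver mean as a covariate Cldn4 (0.056) and Cldn12 (0.020) turned, and with the nephric tubule and duct mean over all 9 markers, added after seeing the data, Cldn2 (0.49), Cldn3 (1.38), Cldn4 (1.70), Cldn6 (3.21), Cldn7 (0.50), Cldn8 (2.20), Cldn12 (0.086) and Cldn19 (0.77) turned, the number of lower claudins was 1 and their median 1.08. The 9 markers include the dim Sim1, whose highest values were all in wild-type arrays, so no conclusion is drawn from the turns with that mean. Over the 6 of these markers above background on all arrays, also added after seeing the data, Cldn3 (0.024), Cldn6 (0.31) and Cldn8 (0.48) turned. In that fit 6 claudins were lower and the median of the claudins was −0.019.

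The number of claudins at an unadjusted p under 0.05, 3 without any change, was 1 with median scaling, quantile normalization, slide as a fixed block, the deposited table, the liver mean and the 6-marker nephric mean. Over all features the count at an adjusted p under 0.05 was 3 with normexp correction and 0 to 1 when an array was left out. The count at an unadjusted p under 0.05 was 3400, against 808 with the liver mean, 1731 with the 9-marker nephric mean and 1750 to 3810 when an array was left out. The causes were not tested. Leaving out each array in turn gave −1.05 to 0.49 for Cldn3, −1.78 to 0.42 for Cldn4, −1.66 to 0.33 for Cldn6, −0.91 to 0.52 for Cldn8, 1.57 to 2.71 for Cldn1, −2.89 to −1.74 for Cldn2, −0.52 to −0.052 for Cldn7, −0.47 to −0.15 for Cldn12, −0.68 to −0.10 for Cldn19 and −1.56 to −0.94 for Cldn10. The number of lower claudins was then 5 to 9, their median −0.95 to 0.05, and the number at an unadjusted p under 0.05 was 0 to 2. Scaling moved the median of all features by under 0.1.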

Other observations

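Some genes of claudin turnover and control varied widely from array to array in both groups, and others did not. The log2 range over all 8 arrays was 1.10 for Ovol2 and 0.84 for Prss8, beside a median of 1.82 over all features. It was 4.83 for Elf3 and 3.57 for Grhl2, and also wide for Epcam (5.15) and Hnf4a (4.97). Elf3, an epithelial transcription factor gene, read −4.97, −1.87 and −4.27 in labelled p21-null arrays and −1.19, −5.28, −2.38, −0.45 and −3.56 in wild-type arrays, so its 3 highest arrays were those of Cldn6. Grhl2, a grainyhead factor gene known to act on Cldn4, read −1.96, 0.82 and −2.30 in labelled p21-null arrays and 1.27, −1.48, −0.90, −1.22 and −0.95 in wild-type arrays, labelled p21-null replicate 2 and wild-type replicate 1 standing apart at the top. Differences were −1.13 (SE 1.12) for Elf3 and −0.49 (SE 0.83) for Grhl2.

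Zeb1, which encodes a repressor of epithelial genes, differed by −0.57 (SE 0.50), and was lowest in wild-type replicate 1, at −0.29. Hnf4a, a factor of liver and proximal tubule, differed by 1.43 (SE 0.92), and Wnk1, a kinase of salt transport, by 0.53. None of the 15 genes of claudin turnover and control had an unadjusted limma p under 0.05, beside 10.1% of all features. Over the slides, 3 of the 10 claudins kept 1 sign within all 3: Cldn1 was higher, and Cldn6 and Cldn10 were lower. Each within-slide difference rests on a single array labelled p21-null, and no share over all features stands beside this count.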
